A study of Homo sapiens with 6 samples.

Results

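Intestinal differentiation and mucin genes were followed in HCT116, an established cell line from a human colorectal carcinoma, after 24 h with 0.5 µM oxaliplatin (OXA), a platinum drug that damages DNA, or without treatment (NT). The set held 10 genes, CDX1, CDX2, KLF4, VIL1, MUC1, MUC2, MUC5AC, MUC13, TFF1 and TFF3, chosen by symbol, and all 10 were among the 27942 genes of the count table. Polyadenylated RNA was sequenced with a stranded kit in 3 libraries per group, from cells grown in RPMI medium with serum and not yet confluent. HCT116 is a tumor line in culture and has none of the crypt and villus structure of the gut. The sample labels number the libraries but do not say whether they came from separate experiments, so p-values measure the spread between these libraries, which may be technical.

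In the intestine, the homeobox factors CDX1 and CDX2 maintain the identity of the epithelium, and the zinc finger factor KLF4 accompanies the exit of cells from the cycle and the maturation of goblet cells. Absorptive cells build a brush border, in which villin (VIL1) bundles actin. Goblet cells secrete the gel-forming mucin MUC2 together with the trefoil peptide TFF3, whereas MUC5AC and TFF1 are products of the gastric surface epithelium. MUC1 and MUC13 are mucins anchored in the cell membrane.

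The 10 genes were expressed at very different levels in HCT116. For 4 of them, CDX1, MUC5AC, TFF1 and TFF3, no read was counted in any of the 6 libraries. MUC2 and MUC13 were detected with at most 8 reads per library, and CDX2, KLF4, VIL1 and MUC1 passed the filter on low counts and were tested. By the quasi-likelihood test of edgeR, with a call at an adjusted p under 0.05, none of these 4 was called, where 5.07% of all 13727 tested genes were called (2.78% higher and 2.29% lower in OXA). At an unadjusted p-value under 0.05 there was 1 member, KLF4, where 21.7% of the tested genes reached that level, and DESeq2 and limma-voom also called 0 members after adjustment and 1 before. With the library number as a block in the edgeR fit, KLF4 was called as higher in OXA, where 12.1% of the tested genes were.

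RefSeq promoter sequences (build GRCh38.p14, from 250 bases before to 50 after the start) were matched for 5 of the 10 genes, CDX2, KLF4, MUC1, MUC2 and MUC13, and not for CDX1, VIL1, MUC5AC, TFF1 and TFF3. The promoters of CDX2 and KLF4, with at least 434 reads per library, are shown beside those of MUC2 and MUC13, with at most 8, because these genes stand at the ends of the range of detected levels. Capitals mark CG dinucleotides.
CDX2 promoter, chr13:27969266-27969565, minus strand: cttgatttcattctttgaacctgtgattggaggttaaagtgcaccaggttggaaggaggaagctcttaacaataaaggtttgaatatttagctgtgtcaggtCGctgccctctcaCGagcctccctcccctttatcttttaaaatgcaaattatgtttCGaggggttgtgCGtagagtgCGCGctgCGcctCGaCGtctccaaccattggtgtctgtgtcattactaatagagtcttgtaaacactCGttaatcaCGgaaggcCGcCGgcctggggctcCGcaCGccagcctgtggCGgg
KLF4 promoter, chr9:107489720-107490019, minus strand: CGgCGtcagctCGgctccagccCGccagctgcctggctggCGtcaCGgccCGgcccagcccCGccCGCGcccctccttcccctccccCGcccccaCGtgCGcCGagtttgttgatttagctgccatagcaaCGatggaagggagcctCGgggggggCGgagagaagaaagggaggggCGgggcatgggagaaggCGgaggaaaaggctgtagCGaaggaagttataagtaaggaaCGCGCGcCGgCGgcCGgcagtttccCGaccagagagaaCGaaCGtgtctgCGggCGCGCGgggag
MUC2 promoter, chr11:1074624-1074923, plus strand: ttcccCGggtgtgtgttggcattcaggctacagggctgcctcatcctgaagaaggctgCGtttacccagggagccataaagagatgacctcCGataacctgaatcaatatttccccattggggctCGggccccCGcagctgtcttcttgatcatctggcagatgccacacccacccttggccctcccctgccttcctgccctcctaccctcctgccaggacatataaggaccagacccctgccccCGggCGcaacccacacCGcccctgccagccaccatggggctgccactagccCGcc
MUC13 promoter, chr3:124934702-124935001, minus strand: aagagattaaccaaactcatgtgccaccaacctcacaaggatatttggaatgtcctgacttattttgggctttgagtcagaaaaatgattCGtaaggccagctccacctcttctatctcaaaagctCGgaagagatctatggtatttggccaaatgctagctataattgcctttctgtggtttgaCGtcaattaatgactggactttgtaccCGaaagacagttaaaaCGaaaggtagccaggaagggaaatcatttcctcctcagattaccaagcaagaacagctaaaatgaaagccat
The KLF4 promoter held 33 CG dinucleotides and that of CDX2 held 16, against 9 in that of MUC2 and 5 in that of MUC13. The median was 26 over the promoters of 10396 tested genes and 4 over those of 3324 genes without a read in these libraries. The letters TTTATG, a core of sites bound by CDX factors, were searched on both strands and occurred once, in the MUC2 promoter, where 11% of all promoters held them. CACCC, a core of sites bound by KLF factors, was found 3 times on both strands together in the MUC2 promoter and in none of the other 3, where 58.9% of all promoters held it. These matches describe the letters of the windows only. The RefSeq starts of KLF4 and MUC13 lie inside the spans that GENCODE gives these genes, so each of these windows is at 1 of the annotated starts of its gene.

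Levels of different genes were compared as CPM (counts scaled to the size of the library) per kilobase of 1 representative transcript. KLF4 (chromosome 9 of GRCh38 from 107484852 to 107490482) was at a level of 4.58 ± 0.626 in NT and 6.50 ± 0.797 in OXA (means with SD over 3 libraries, as in all values with ± here). CDX2 (chromosome 13 from 27960918 to 27969315) was at 3.89 ± 0.274 in NT and 4.60 ± 0.260 in OXA, and its range over the 6 libraries overlapped that of KLF4. Of the tested genes, 56.0% had a higher level than KLF4 and 61.5% a higher level than CDX2. MUC1 (chromosome 1 from 155185824 to 155192916) followed at 0.550 ± 0.161 in NT and 0.589 ± 0.0713 in OXA, so the mean level of CDX2 over all libraries was 7.46 times that of MUC1. VIL1 (chromosome 2 from 218419121 to 218453295) was at 0.339 ± 0.0835 in NT and 0.260 ± 0.0880 in OXA. The ranges of MUC1 and VIL1 did not overlap with this length, but they did when the union of all exons was taken as the length. MUC13 (chromosome 3 from 124905442 to 124953819) had a mean level of 0.0595 over the 6 libraries and MUC2 (chromosome 11 from 1074875 to 1110511) one of 0.0152. The representative transcript of MUC2 had 4209 bases against 12667 in the union of its exons, with which its level was 0.00505. The level that 3 reads give in the shallowest library was 0.0316 for MUC13 and 0.0216 for MUC2, so MUC2 lay around that limit.

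**Figure D1:**
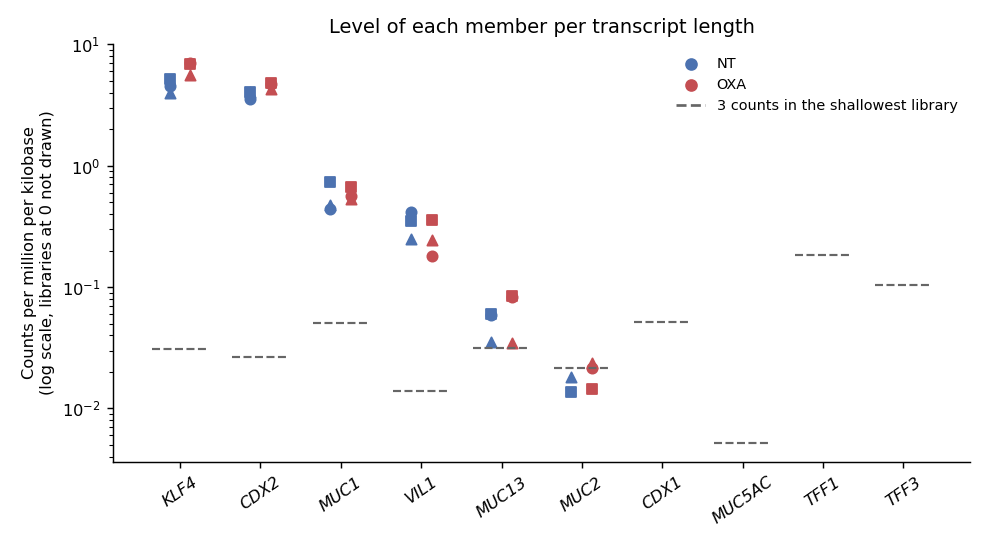
Level of each gene in CPM per kilobase of transcript (log axis) in the NT (blue) and OXA (red) libraries, with a circle, square or triangle for library 1, 2 or 3 and dashed lines at the level of 3 counts in the shallowest library. KLF4 and CDX2 lay highest, MUC1 and VIL1 lower, MUC13 and MUC2 near the dashed lines, and CDX1, MUC5AC, TFF1 and TFF3 had no point because they had no reads.

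The 4 genes without a read lie on 3 chromosomes. CDX1, the paralog of CDX2, is on chromosome 5 from 150166778 to 150184558, and since it had 0 reads in every library the paralogs could not be compared under treatment. TFF1 (from 42362282 to 42366535) and TFF3 (from 42311667 to 42315409) lie with TFF2 within 54.9 kb of chromosome 21, and no read was counted for any of the 3 trefoil genes. The nearest tested protein-coding genes on either side of this cluster were ABCG1, with 67 to 118 raw counts per library, and RSPH1, with 34 to 58. MUC5AC (from 1157953 to 1201138) lies with MUC6, MUC2 and MUC5B within 249.3 kb of chromosome 11, between AP2A2, with 2225 to 3079 raw counts, and TOLLIP, with 335 to 719. In this cluster of gel-forming mucins MUC6 and MUC5AC had no read, and MUC2 and MUC5B had at most 4 reads per library. A count of 0 in a single library allows an expected count of up to 3 reads, which is 0.0909 CPM in the shallowest library. Such limits hold for each library alone, and like the counting intervals they cover counting error only. Mucins share repeats and related domains. The submitters' notes name RSEM 1.3.3, but its settings for reads that match several genes are not given in the sources used here. How its output became the deposited whole numbers is not given either, and the counting intervals take these numbers as reads.

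KLF4, the zinc finger factor, had 478.4, 551.8 and 419.8 TMM-normalized counts in NT libraries 1 to 3 and 741.1, 729.4 and 589.8 in OXA libraries 1 to 3. All 3 OXA values were above the highest NT value, as in 14.5% of the tested genes (28.9% with groups apart in either direction). The log2 fold change (log2FC) of OXA over NT was 0.51 (standard error (SE) 0.15, adjusted p = 0.10 by edgeR, unadjusted p = 0.0104), a fold of 1.42 with a 95% interval from 1.12 to 1.81. OXA exceeded NT by 0.63, 0.40 and 0.49 on the log2 scale in the pairs of libraries numbered 1, 2 and 3. With the library number as a block, the standard error was 0.086 and the edgeR adjusted p was 0.0139. Over the 6 fits that left out 1 library each, the log2 fold change lay between 0.38 and 0.58 and the edgeR adjusted p between 0.0832 and 0.308. Of the tested genes, 13.4% had a larger log2 fold change in either direction. In bulk RNA, fewer or more cells that express a gene and a change of its RNA per cell cannot be told apart.

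CDX2, the homeobox factor, had 443.7, 499.9 and 504.7 normalized counts in NT against 586.4, 592.0 and 533.7 in OXA. The groups did not overlap, and OXA library 3 lay closest to NT. The log2FC was 0.24 (SE 0.12, adjusted p = 0.283 by edgeR), a fold of 1.18 with a 95% interval from 0.979 to 1.43. The differences between same-numbered libraries were 0.40, 0.24 and 0.081 on the log2 scale, and CDX2 was not called with the block either (edgeR adjusted p = 0.123). It had the smallest spread of the 4 tested genes, with a coefficient of variation of 7.03% in NT and 5.64% in OXA.

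VIL1, the gene of the actin bundler villin, had 97.1, 82.1 and 58.4 normalized counts in NT against 42.2, 82.9 and 57.0 in OXA. The groups overlapped, and the values of libraries 2 and 3 were close between NT and OXA. The log2FC was -0.38 (SE 0.31, adjusted p = 0.532 by edgeR), a fold of 0.767 with a 95% interval from 0.468 to 1.26. The pair of libraries numbered 1 differed by -1.20 on the log2 scale and the other pairs by 0.013 and -0.035, and the log2 fold change was -0.18 without OXA library 1. VIL1 overlaps USP37, a deubiquitinase gene on the opposite strand with 1130 to 2313 raw counts per library. USP37 had 2128 ± 193 normalized counts in NT against 1452 ± 197 in OXA (log2FC -0.55, adjusted p = 0.0535 by edgeR, and 0.00756 with the block). The strand setting of the counting is not given in the sources used here, and the part of USP37 reads in the VIL1 counts was not tested.

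**Figure D2:**
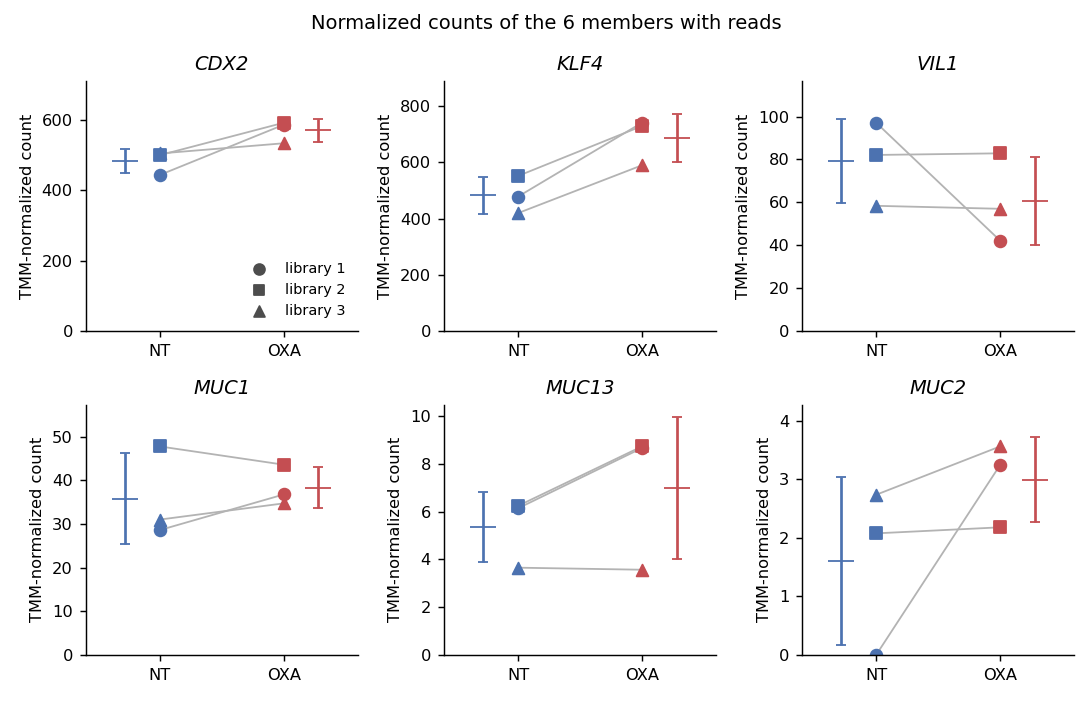
TMM-normalized counts of the 6 genes with reads in NT (blue) and OXA (red), each axis starting at 0, with grey lines between same-numbered libraries and bars for the mean ± SD of 3 libraries. KLF4 and CDX2 were higher in each OXA library than in any NT library, VIL1 differed mainly in library 1, and MUC1, MUC13 and MUC2 overlapped between the groups.

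The membrane mucin MUC1 had 28.6, 47.8 and 31.0 normalized counts in NT against 36.8, 43.6 and 34.8 in OXA. NT library 2 was the highest of the 6 and NT library 1 the lowest, so the OXA values lay inside the range of NT. The log2FC was 0.10 (SE 0.28, adjusted p = 0.877 by edgeR), a fold of 1.07 with a 95% interval from 0.684 to 1.68. It was -0.035 without NT library 1 and -0.024 without NT library 3. Another annotated protein-coding gene, with 0 to 6 raw counts per library, overlaps MUC1 on the same strand. How reads were divided between the 2 genes was not tested. These libraries could not tell a MUC1 change within the 95% interval from no change.

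MUC13, the other membrane mucin, had 6, 6 and 4 raw counts in NT against 8, 8 and 4 in OXA, too few for the filter. Summed over a group this was 16 reads in NT and 20 in OXA, a ratio of 1.28 after normalization with a 95% counting interval from 0.631 to 2.64. An exact two-sided permutation test over the libraries gave p = 0.6, where 0.1 is the smallest p this design allows. MUC2, the gel-forming mucin of goblet cells, had 0, 2 and 3 raw counts in NT against 3, 2 and 4 in OXA. The ratio of 9 reads in OXA to 5 in NT was 1.84 with an interval from 0.555 to 7.00, and the exact permutation p was 0.2. The libraries overlapped for both genes, and a difference was not detectable at this depth.

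**Figure D3:**
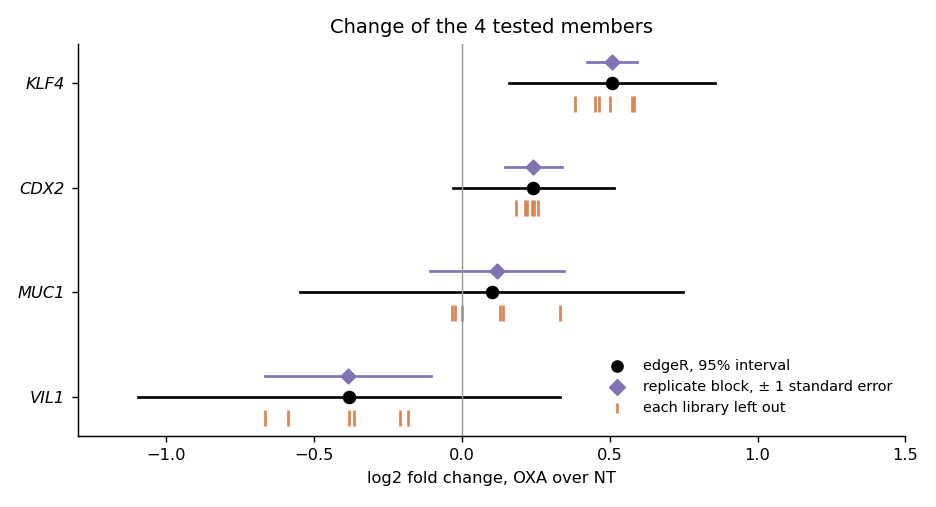
Log2 fold change of OXA over NT for the 4 tested genes, with the edgeR estimate and its 95% interval (black), the fit with the library number as a block ± 1 standard error (purple) and the 6 fits that each left out 1 library (orange ticks). The interval of KLF4 lies above 0, that of CDX2 just includes it, and those of MUC1 and VIL1 are wide and include it.

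NT library 1 stood apart from the others of its group, with a chi-square per gene of 83.1 and 75.7 against NT libraries 2 and 3, which had 21.4 between them. Without it, the log2 fold changes were 0.50 for KLF4 (edgeR adjusted p = 0.0832), 0.18 for CDX2 and -0.21 for VIL1, and 0 of the 4 were called. The epithelial origin of the line was checked with 10 epithelial markers, all of which were tested, and their sum was 2555 to 3527 CPM in NT and 3874 to 4533 in OXA. Of these, edgeR called 0, limma-voom 0 and DESeq2 1 as higher. At an unadjusted p under 0.05 by edgeR, 3 were higher and 2 lower, where 21.7% of all tested genes reached that level. The fit with the block called 4 higher and 3 lower, where 12.1% of all tested genes were higher and 10.9% lower. The part of the difference in these markers in the results was not tested. Of 14 markers of fibroblasts, endothelium and blood cells, 3 (CD68, COL1A1 and VWF) passed the filter and DCN and LUM were at 0. The sum of these markers was 8.55 to 15.1 CPM in NT and 11.8 to 14.7 in OXA.

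Genes that act beside the members were taken from 10 lists with 198 genes in all, of which 193 were in the table, 154 had a read and 99 were tested. Of the 99, 8 were higher and 6 lower in OXA by the edgeR test, where 2.78% of all tested genes were higher and 2.29% lower, and their median log2 fold change was -0.013, against 0.023 for all genes tested. With the library number as a block 18 were higher and 12 lower, where the block called 23% of all tested genes. Of the 14 genes, 14 were called without NT library 1, 7 without NT library 2, 2 without NT library 3, and 1 each without OXA library 1, 2 or 3. Among the 99, MYO1A, which is 1 of the 8, and VSIG1 passed the filter on low counts only through the OXA libraries, where they were high. These counts rest in part on that choice.

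Among 19 tested transcription factors of the gut epithelium, 3 were higher, 1 was lower and 15 were not called, with a median log2 fold change of 0.30. PRDM1, a zinc finger repressor, had 73.6, 95.6 and 56.6 normalized counts in NT against 228.3, 210.4 and 169.3 in OXA (log2FC 1.43, SE 0.24, adjusted p = 0.0186 by edgeR). ELF3, an epithelial ETS factor, rose from 1346 ± 355 to 2924 ± 194 normalized counts (log2FC 1.12, adjusted p = 0.0210 by edgeR). SOX9, a factor of crypt progenitor cells and the gene of this list with the most counts, rose from 5607 ± 269 to 7838 ± 466 (log2FC 0.48, adjusted p = 0.0240 by edgeR). HOXA13, a homeobox gene of the hindgut, fell from 371 ± 36.3 to 237 ± 14.7 (log2FC -0.65, adjusted p = 0.0428 by edgeR). KLF5, a factor of proliferating crypt cells, had a log2FC of 0.30 (adjusted p = 0.264 by edgeR) and was called with the block (edgeR adjusted p = 0.0135). With the block, 6 genes of this list were higher and 3 lower, where 12.1% and 10.9% of all tested genes were. FOXA1 was among those lower with the block (log2FC -0.82, edgeR adjusted p = 0.0637 without the block and 0.0291 with it). GATA4 and GATA5 had no reads.

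The list of other KLF genes left out KLF5, which stands with the transcription factors above (log2FC 0.30, called higher with the block). Of the 13 tested genes of this list, 0 were higher and 2 lower in OXA (edgeR). The same counts held at an unadjusted p under 0.05 and by DESeq2 and limma-voom, and the median log2 fold change was -0.10. KLF12 had 894.7 ± 45.5 normalized counts in NT against 550.5 ± 19.8 in OXA (log2FC -0.70, SE 0.10, adjusted p = 0.0120 by edgeR). KLF7 had 674 ± 37.7 in NT and 473 ± 6.04 in OXA (log2FC -0.51, adjusted p = 0.0395 by edgeR). KLF10, the one with the most counts, had a log2FC of -0.12 (adjusted p = 0.410 by edgeR). KLF4 itself had a log2 fold change of 0.51 beside a median of -0.10 over these 13 genes without KLF5, and that difference was not tested.

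For the brush border, 3 of 15 tested genes were higher and 1 was lower, with a median log2 fold change of 0.23. MYO1A, a myosin of the microvillus, had 1, 3 and 2 raw counts in NT against 13, 13 and 14 in OXA. The ratio of 40 reads in OXA to 6 in NT was 6.83 after normalization, with a 95% counting interval from 2.88 to 19.7 (edgeR adjusted p = 0.0218). It passed the filter on low counts only through the OXA libraries, where it was high, so its call and its place in this count rest in part on that choice. Its edgeR adjusted p was 0.0322 with no filter, and DESeq2 gave it no adjusted p, nor did a filter of at least 1 CPM in 3 libraries keep it. EPS8L2, an actin regulator, had 482.5, 1276 and 1028 normalized counts in NT against 2178, 3219 and 2334 in OXA (log2FC 1.47, SE 0.33, adjusted p = 0.0483 by edgeR). EZR, whose product ezrin links the membrane to actin, had the most counts in this list and rose from 52601 ± 4358 to 84402 ± 2987 (log2FC 0.68, adjusted p = 0.00987 by edgeR). MYO1D, another class I myosin, fell from 3255 ± 212 to 2488 ± 98.2 (log2FC -0.39, adjusted p = 0.0495 by edgeR). CDHR2 and CDHR5, cadherins of the microvillus tip, had at most 13 reads and 1 read per library, and their partner ANKS4B had 0.

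Of 31 markers of absorptive cells in the table, 12 had no read and 6 were tested, among which 1 was higher. This was the adhesion gene CEACAM1, with 26.6, 23.9 and 54.8 normalized counts in NT against 139.6, 149.4 and 138.1 in OXA (log2FC 2.01, SE 0.32, adjusted p = 0.0165 by edgeR). The carbonic anhydrase CA2, with the most counts of the list, had a log2FC of 0.11 (adjusted p = 0.614 by edgeR). KRT20, a keratin of differentiated colonocytes, had 46.1 ± 9.0 normalized counts in NT against 32.95 ± 4.22 in OXA (log2FC -0.48, adjusted p = 0.319 by edgeR). TSPAN1 of the same list went the other way (log2FC 0.70, adjusted p = 0.195 by edgeR, and 0.0169 with the block). The median log2 fold change of the 6 tested genes was 0.15. FABP1, SI and SLC26A3 had no reads in any library.

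Of 22 goblet cell genes, 7 had no read and 9 were tested. By edgeR 0 were higher (1 at an unadjusted p under 0.05, and 0 by DESeq2 and limma-voom) and 2 were lower, with a median log2 fold change of 0.046. GFI1, a transcription factor of the secretory lineage, fell from 267.6 ± 24.4 to 159.2 ± 6.45 normalized counts (log2FC -0.75, SE 0.14, adjusted p = 0.0301 by edgeR). GALNT12, an enzyme that starts O-glycosylation and the gene of this list with the most counts, fell from 1406 ± 129 to 843.5 ± 46.1 (log2FC -0.74, SE 0.11, adjusted p = 0.0126 by edgeR). The secretory regulators ATOH1 and SPDEF had at most 4 reads per library each.

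Of 15 other mucin genes in the table, 4 had no read and 5 were tested, and edgeR called 0 of them. At an unadjusted p under 0.05, 1 was higher and 1 lower by edgeR and limma-voom, and 0 by DESeq2. MUC3A, a membrane mucin, had the most counts, 875 ± 202 in NT and 973 ± 194 in OXA (log2FC 0.15, adjusted p = 0.733 by edgeR), and its near-identical neighbour MUC3B makes these counts uncertain. MUC4, another membrane mucin, had 17.4, 21.8 and 16.4 normalized counts in NT against 33.5, 43.6 and 26.7 in OXA (log2FC 0.89, SE 0.29, adjusted p = 0.130 by edgeR, and 0.0517 with the block).

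Among 22 tested enzymes of mucin-type O-glycosylation, 1 was higher, GALNT5, which also starts O-glycosylation. It had 384.4, 319.0 and 447.2 normalized counts in NT against 1149, 979.1 and 1353 in OXA (log2FC 1.6, SE 0.17, adjusted p = 0.00451 by edgeR). GALNT5 was the gene called in each of the 6 fits that left out 1 library, with a log2 fold change from 1.44 to 1.71. GALNT1, the enzyme with the most counts, had a log2FC of -0.30 (adjusted p = 0.225 by edgeR, and 0.0188 with the block).

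Markers of other lineages were mostly below the filter on low counts. By edgeR, 0 of 3 tested gastric, 0 of 4 enteroendocrine and 0 of 3 Paneth or tuft cell genes were called, and 1, 0 and 1 of them were higher at an unadjusted p under 0.05. DESeq2 called 0 in these lists and limma-voom called 1 gastric gene. The gastric gene counted at an unadjusted p was VSIG1. It passed the filter on low counts only through the OXA libraries, where it was high, so the gastric counts rest in part on that choice. The genes with the most counts were the fucosyltransferase FUT2, the granin SCG2 and the lipoxygenase ALOX5, with log2 fold changes of 0.099, 0.081 and 0.98 (edgeR adjusted p = 0.775, 0.869 and 0.0894). With the block, ALOX5 was called (edgeR adjusted p = 0.0148).

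**Figure D4:**
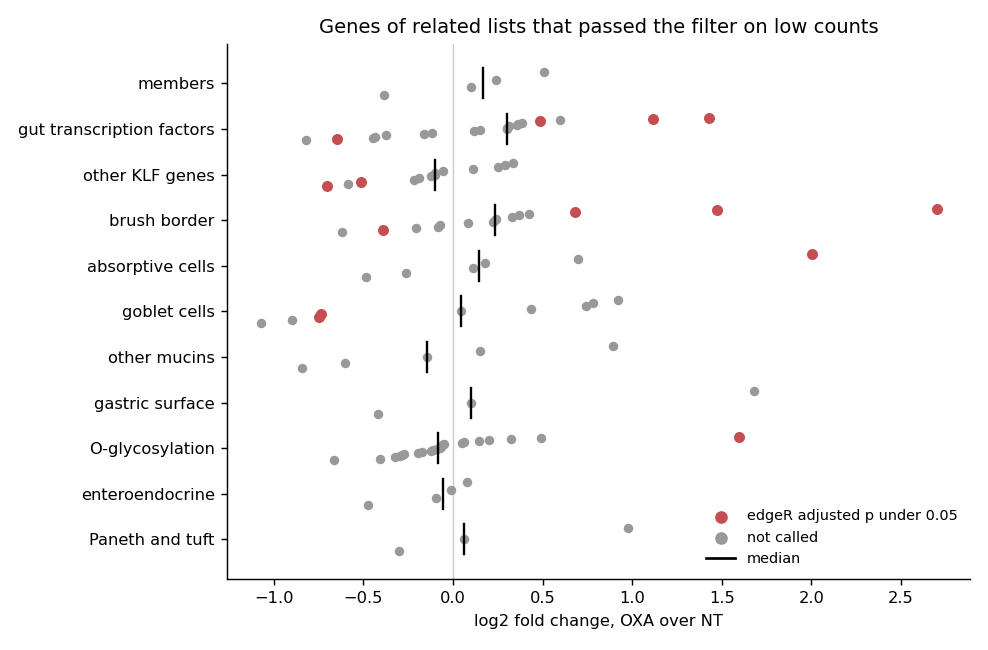
Log2 fold change of OXA over NT for each tested gene of the members and the 10 lists (rows), with genes called by edgeR in red, others in grey and the median of each row as a black bar; height within a row has no meaning. Called genes stand on both sides of 0, with MYO1A, CEACAM1, GALNT5, EPS8L2 and PRDM1 farthest to the right. MYO1A passed the filter on low counts only through the OXA libraries, where it was high, so its place rests in part on that choice.

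The deposited normalized values differed from the raw counts by a factor (normalized value divided by raw count) that varied between genes. For KLF4 and VIL1 the largest factor over the 6 libraries was 1.22 times the smallest. For CDX2 the factor lay between 0.718 and 1.3, and 9.83% of 14949 genes with a read in every library had a wider relative range. The authors' values of CDX2 were 420, 567.5 and 495.5 in NT and 651.7, 705.1 and 430.2 in OXA, so the groups overlapped on that scale because of OXA library 3. MUC13 had 8 raw counts in both OXA libraries 1 and 2, which stood at 32.8 and 6.81 in the authors' values. MUC2 had 4 raw counts in OXA library 3 and an authors' value of 31.9, a factor of 7.98. With these factors in the edgeR fit, the log2 fold changes of KLF4 and CDX2 were 0.47 and 0.27 (edgeR adjusted p = 0.152 and 0.555).

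**Figure D5:**
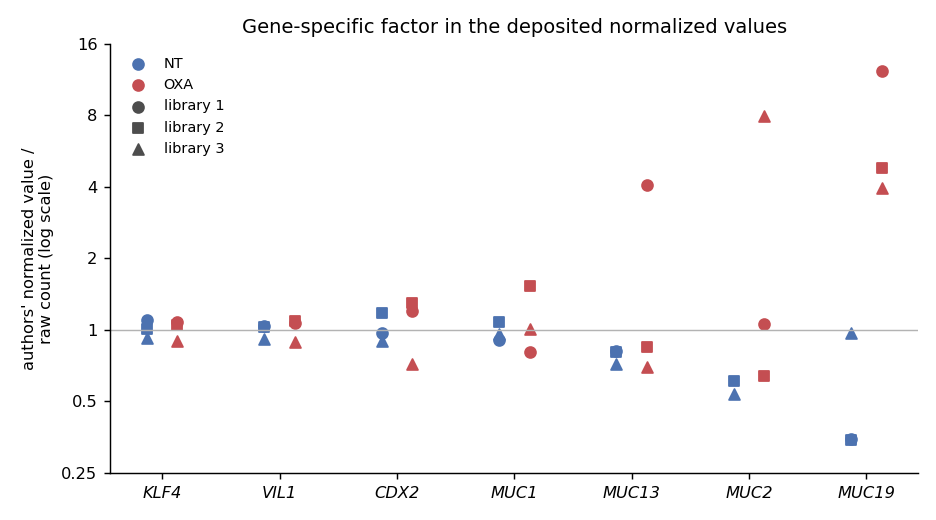
Authors' normalized value divided by the raw count (log axis) in each NT (blue) and OXA (red) library with a read, for the 6 genes with reads and the gel-forming mucin MUC19, with a circle, square or triangle for library 1, 2 or 3. The factors of KLF4 and VIL1 lie near 1, and MUC13 in OXA library 1, MUC2 in OXA library 3 and MUC19 in the OXA libraries reach 4.09, 7.98 and 12.4.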

How the data were processed

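RNA-seq libraries of HCT116 cells, 3 NT and 3 OXA, were grouped by their sample titles. The submitters' processing notes name build GRCh38, Trimmomatic 0.32, STAR 2.7.5b, RSEM 1.3.3 and DESeq2 2.13, and the annotation and strand setting of counting are not given in the sources used here. The authors deposited raw counts, whole numbers used as deposited, with 32979521 to 40967880 per library. They also deposited a normalized signal, the raw count times a factor that differed between genes and libraries, used here only for an alternative and for the factor itself.

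Low genes were removed by filterByExpr of edgeR (at least 10 counts by its rule, total at least 15), and the rest were scaled by TMM and compared by the quasi-likelihood test (edgeR 4.0.16 in R 4.3.3). P-values were adjusted by Benjamini-Hochberg across the 13727 genes tested. The SE is the log2 fold change over the square root of F. Gene positions and lengths came from GENCODE on GRCh38. The steps were tested on simulated data. Deviations of same-numbered libraries from their group means correlated across genes with r = 0.71, 0.711 and 0.41, and those of other pairs with -0.601 to 0.15, so the library number in the titles was used as a block in a further fit.

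The members and lists were chosen with earlier results of these data known, so list counts are descriptions. Named from the lists are genes with an edgeR adjusted p under 0.05 (at most 5 per list) and the tested gene with the most counts in each list. KLF5, FOXA1, TSPAN1 and VSIG1, which are among the genes whose call the block changed, were chosen after their values were seen. So were KRT20, MUC4, MUC19, USP37 and the genes named at or near 0. Alternatives were other scaling, other filters, DESeq2 1.42.0, limma-voom (limma 3.58.1), a newer edgeR fit, the block, the authors' factors, leaving out each library and another transcript length.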

Additional observations from a re-analysis of the deposited data

How the results depend on the processing

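KLF4, CDX2 and VIL1 kept their direction under all 15 alternatives, and no member was called lower under any. With the replicate number as a block, 1 member was called higher, KLF4 (log2 fold change 0.51, edgeR adjusted p = 0.0139), 18 related genes were higher and 12 lower, and of all genes 1664 were higher and 1493 lower. The block changed the call of no other member. With 1 library left out, the log2 fold change of MUC1 lay between -0.035 and 0.33, 66 to 623 genes were higher and 19 to 571 lower, and 1 to 9 related genes were higher and 0 to 6 lower. Against 381 genes higher and 315 lower in the main analysis, 511 were lower with total counts only and 479 with at least 1 CPM in 3 libraries, DESeq2 called 612 higher and 580 lower, and the authors' gene-specific factors gave 246 higher and 205 lower, with 5 related genes higher and 2 lower. The cause of these differences was not tested. With the union of exons as length, the level of MUC1 was 0.429 and that of MUC2 0.00505 CPM per kilobase. These follow from the length used, which was 2401 in place of 1811 bases for MUC1 and 12667 in place of 4209 for MUC2. MUC2 and MUC13 had too few reads for the test. A count of 0 in a single library cannot be told from an expected count of up to 3 reads there, and the limit over all libraries together was not computed.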

Other observations

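VSIG1, a marker of the gastric epithelium, had 2, 3 and 5 raw counts in NT against 10, 10 and 12 in OXA. The ratio of 32 reads in OXA to 10 in NT was 3.28 after normalization, with a 95% counting interval from 1.57 to 7.48. The gene passed the filter on low counts only through the OXA libraries, where it was high, so its p-value is not given.

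MUC19, a gel-forming mucin with too few reads for the test, had 2, 1 and 4 raw counts in NT against 2, 7 and 7 in OXA, and the groups overlapped. The ratio of 16 reads in OXA to 7 in NT was 2.34 with a 95% counting interval from 0.911 to 6.73. The authors' normalized values of MUC19 were 0.695, 0.345 and 3.88 in NT and 24.7, 33.6 and 27.6 in OXA, so the groups did not overlap on that scale. The factor behind them lay between 0.345 and 12.4, and 0.0201% of 14949 genes with a read in every library had a wider relative range. The cause of this spread of factors was not tested.

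Among the members with reads, MUC2 alone had a standard deviation over 0.5 of log2 CPM over the 6 libraries. The tested genes with the most similar profile were CSF1, SLC35E4 and GHDC, at a root mean square difference of 0.139, 0.159 and 0.159 on the log2 scale. They were the closest of all tested genes with a mean of at least 50 normalized counts. Such a search always returns some genes, and whether they share a pattern with MUC2 was not tested. MUC2 rests on 14 reads in all.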
